A study of Homo sapiens with 9 samples.

Results

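Genes whose expression under Compound Kushen Injection (CKI) lay outside the levels given by its single-herb injections were examined. CKI is an injection prepared from the herbs Kushen and Baituling. A gene was a member when its log2 expression in all 3 CKI libraries lay above, or in all 3 lay below, all 6 libraries of Kushen injection and Baituling injection. Of 14195 genes tested, 4559 were members, 2332 with CKI above and 2227 with CKI below, and the other 9636 had at least 1 CKI library within the range of the single injections. The samples were cultures of MDA-MB-231, a human breast cancer line long kept in culture that lacks estrogen and progesterone receptors. They were treated for 48 h, and their total RNA was sequenced from both ends without keeping the strand. CKI was used at 2 mg/mL, and Kushen injection and Baituling injection were each used, per the labels, in the same ratio as in it. The labels do not say whether this is the amount of each herb within CKI or an equal concentration, while the study's methods describe an equivalent total alkaloid content, so that a level beyond both injections, or beyond their sum, may compare unequal herb amounts. Each treatment had 3 libraries, which the series describes as biological replicates, and p-values measure only the spread between these. All groups were treated, and no untreated library was analysed here, so every statement compares CKI with the single injections.

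Some members belonged to textbook programmes, as set by gene lists written with earlier results of these data known. Members at large were not assigned to programmes. Immediate early genes encode transcription factors that growth factor and stress kinases switch on within minutes through serum response elements, and factors of the AP-1 family in turn act on cytokine and protease genes. The aryl hydrocarbon receptor binds planar aromatic compounds and turns on cytochrome P450 genes, and NRF2 turns on genes against oxidants and electrophiles. Genes of mitosis, DNA replication and ribosomal proteins are high in growing cells, and ribosomal protein transcripts begin with a run of pyrimidines through which their translation is controlled.

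Promoters of 6 members are shown because each carries a motif that belongs to one of these programmes. The sequences are those of RefSeq on GRCh38.p14, from 250 bases before to 50 bases after the start of the gene, 5′ to 3′ on the strand of the gene, and capitals mark the motif. EGR1 (chr5:138465229-138465528, plus strand) holds 2 serum response elements that begin at positions -105 and -83 relative to the start. IL1A (chr2:112784444-112784743, minus strand) holds 2 AP-1 sites that begin at -12 and 39. In CYP1A1 (chr15:74725479-74725778, minus strand) the core of a dioxin response element begins at -57. A CCAAT box begins at -57 in H1-2 (chr6:26056421-26056720, minus strand), and 2 begin at -87 and -55 in CCNB1 (chr5:69166900-69167199, plus strand). RPLP0 (chr12:120201062-120201361, minus strand) begins with the pyrimidine run.
EGR1: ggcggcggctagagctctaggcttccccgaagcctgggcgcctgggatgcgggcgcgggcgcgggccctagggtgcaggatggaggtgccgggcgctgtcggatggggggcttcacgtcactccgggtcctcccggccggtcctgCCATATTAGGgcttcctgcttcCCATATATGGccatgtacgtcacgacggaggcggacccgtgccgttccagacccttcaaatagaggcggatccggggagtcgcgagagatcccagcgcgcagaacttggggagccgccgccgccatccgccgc
IL1A: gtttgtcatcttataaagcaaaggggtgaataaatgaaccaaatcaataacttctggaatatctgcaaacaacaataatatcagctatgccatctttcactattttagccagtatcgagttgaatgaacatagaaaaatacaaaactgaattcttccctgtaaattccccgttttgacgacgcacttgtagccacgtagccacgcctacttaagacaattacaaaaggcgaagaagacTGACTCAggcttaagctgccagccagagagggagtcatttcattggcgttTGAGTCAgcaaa
CYP1A1: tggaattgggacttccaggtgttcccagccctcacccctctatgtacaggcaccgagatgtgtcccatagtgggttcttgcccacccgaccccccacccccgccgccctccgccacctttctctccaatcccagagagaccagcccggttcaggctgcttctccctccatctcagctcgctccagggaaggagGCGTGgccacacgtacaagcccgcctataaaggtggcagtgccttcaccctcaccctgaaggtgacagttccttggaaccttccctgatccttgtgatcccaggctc
H1-2: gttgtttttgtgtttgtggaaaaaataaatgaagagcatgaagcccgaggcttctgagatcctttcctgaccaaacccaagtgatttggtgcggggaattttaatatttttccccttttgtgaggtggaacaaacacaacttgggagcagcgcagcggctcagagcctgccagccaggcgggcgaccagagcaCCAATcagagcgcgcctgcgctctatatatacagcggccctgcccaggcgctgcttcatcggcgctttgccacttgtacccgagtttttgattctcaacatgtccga
CCNB1: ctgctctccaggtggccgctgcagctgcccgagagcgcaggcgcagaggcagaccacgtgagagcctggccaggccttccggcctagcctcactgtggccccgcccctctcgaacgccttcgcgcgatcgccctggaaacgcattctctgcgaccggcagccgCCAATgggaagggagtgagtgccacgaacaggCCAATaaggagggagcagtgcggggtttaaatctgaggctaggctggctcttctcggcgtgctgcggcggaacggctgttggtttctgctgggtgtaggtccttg
RPLP0: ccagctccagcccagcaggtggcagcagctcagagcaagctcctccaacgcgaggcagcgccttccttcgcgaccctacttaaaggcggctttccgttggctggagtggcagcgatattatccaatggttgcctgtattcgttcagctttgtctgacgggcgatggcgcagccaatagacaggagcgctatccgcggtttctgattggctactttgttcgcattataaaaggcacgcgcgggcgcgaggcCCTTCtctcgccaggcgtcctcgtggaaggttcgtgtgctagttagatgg

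The total count per library was 20144628 to 23782071, and counts were scaled to CPM, the counts scaled to a common library size after adjustment by TMM. Genes with any count numbered 17555 to 17786 per CKI library, 17017 to 17281 per Kushen library and 16259 to 16379 per Baituling library. The libraries fitted their label as MDA-MB-231 in part. VIM, CD44, AXL, FN1, CAV1 and S100A4 had 3655 to 43383 counts in every library, and ESR1 and PGR had at most 4, whereas KRT19 (16654 to 34245 counts) and ERBB2 (1412 to 2155) were not low. Of the HepG2 markers SERPINA1 had 746 to 1224 counts and the other 7 had at most 22. Baituling replicates 2 and 3 stood apart. Of 8 genes that mark A431, another line of the study, SFN and TP63 were counted in every library. The epidermal genes KRT5, KRT14, KRT6A, KRT13, DSG3 and PKP1, the other 6, summed to 230 and 265 counts there and to 0 to 4 in the other 7 libraries. Their part in the results was not tested, and counts without these libraries are given beside the main ones.

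CKI differed from the average of the single injections in both directions. In edgeR's quasi-likelihood test of the CKI mean against the average of the Kushen and Baituling means, 745 genes (5.25% of those tested) were called higher and 247 (1.74%) lower, at an adjusted p under 0.05 and a log2 difference above 1 or below -1. Higher genes were 75.1% of the calls on the TMM scale but 90.1% when library totals were used, which shifted the median difference of all genes from 0.023 to 0.204. Among genes with at least 10 counts in every library 271 were higher and 186 lower. Without Baituling replicates 2 and 3, a choice made after seeing the data that assumes the lone Baituling library to vary like the others, 916 were higher and 273 lower. This average weighs 2 distant groups, so a gene can be called while CKI lies between them. FOS, an AP-1 subunit, averaged 165 ± 9.10 CPM with CKI, 16.1 ± 4.90 with Kushen and 223 ± 12.5 with Baituling (SD, n = 3 each). It was called higher than the average at 1.46 ± 0.08 (log2, SE) although every CKI library was below every Baituling library.

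The membership rule removes such genes. CKI was above all 6 libraries for 16.4% of the genes tested and below for 15.7%. Since the rule chose members by these values, their differences are a description. Adjusted p-values printed below for members come from the same values and are a description too, with no added support. Members above made up 51.2% of all members on the TMM scale and 76.4% with library totals, and without Baituling replicates 2 and 3 there were 2520 above and 2471 below. Among those just inside the rule, MTMR9 cleared the nearest single-injection library by 4.1e-05 on the log2 scale, while ABHD13 missed by a gap of -5.9e-05. On the lower side MRPL14 cleared it by 0.0003 and ASIC1 missed at -0.00019. All members had passed a filter on low counts. Of the 2332 above, 115 passed it only through their CKI libraries, having fewer than 3 single-injection libraries at the filter, and none of the 2227 below did.

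**Figure D1:**
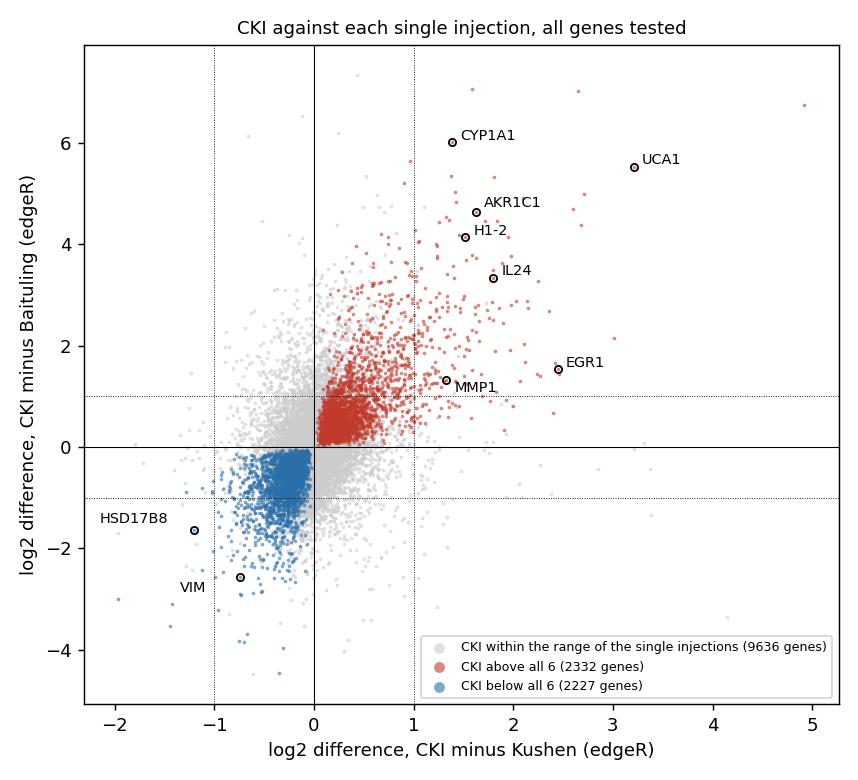
Log2 difference of CKI from Kushen (horizontal axis) and from Baituling (vertical axis) for each of 14195 genes, from edgeR, with the 2332 genes above all 6 single-injection libraries in red, the 2227 below in blue and the others in grey. Dotted lines mark log2 differences of 1 and -1, and named genes are circled. The red cloud reaches far past both upper lines, UCA1 lying at 3.21 and 5.52, while 6 blue genes are past both lower lines.

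Most members were only a little outside the single injections. The distance was taken as the log2 difference between the CKI mean and the mean of the nearer single injection. Its median was 0.29 for members above, a 1.23-fold difference, with quartiles of 0.18 and 0.51, and 0.24 for members below, a 1.18-fold difference. The largest distance was 3.16 above and 1.37 below. Distances over 1 were found in 148 of the 2332 members above and in 5 of the 2227 below, and 53 of the 148 had passed the filter only through CKI.

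**Figure D2:**
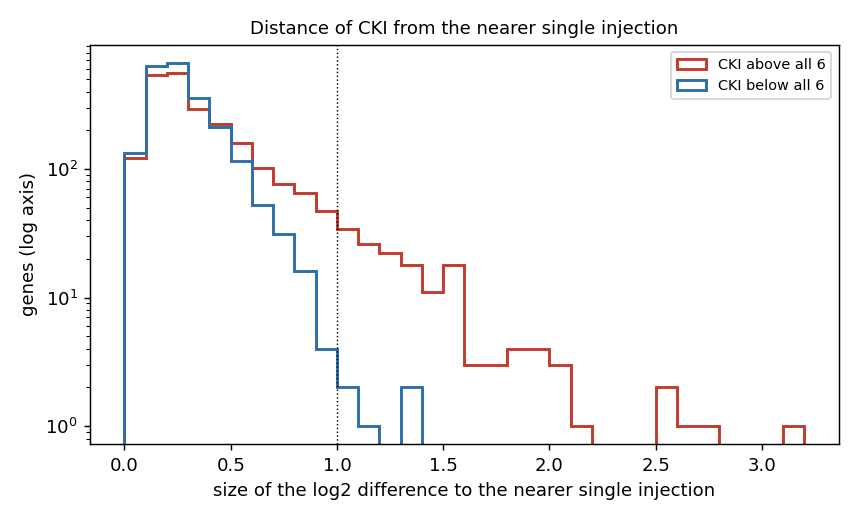
Number of member genes (vertical axis, log scale) by the size of the log2 difference between the CKI mean and the nearer single-injection mean (horizontal axis), in steps drawn separately for members above and members below. Members below end at 1.37, while members above extend to 3.16.

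Kushen was the nearer injection for 1976 of the members above and 1912 of those below, and for 11232 of all 14195 genes. The single injections were also compared with each other in the same fit. At an adjusted p under 0.05, 35.6% of all genes were higher in Kushen than in Baituling and 36.1% higher in Baituling. Of the members above, 1381 were higher in Kushen and 98 higher in Baituling, and of the members below 115 and 1575. For 853 above and 537 below the single injections were not called apart. The rule used these same 6 libraries, and CKI was nearer to Kushen for most genes, so these splits are largely set by how members were chosen and are given as a description. Members above included 159 long noncoding RNAs (6.82%, against 5.52% of all genes), and members below included 27 (1.21%). The median member above had a mean log2 CPM of 4.45 and the median member below 5.91, against 4.71 for all genes.

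A stricter rule required a call in the same direction against each single injection. It was met by 173 genes in the higher direction (1.22% of those tested) and by 6 in the lower (0.0423%), and by 183 and 6 without Baituling replicates 2 and 3. Both comparisons share the CKI libraries, so no test was made of their overlap. The filter had been passed only through CKI by 66 of the 173. The lower genes included HSD17B8 and also SHISA3, TNFRSF13C, ATP2B2 and FAM47E, these 4 named after their values were seen. These 4 had 1 to 12 counts per CKI library. Under Baituling SHISA3 had 55 to 65 counts and ATP2B2 25 to 44. The number of lower genes was 11 without CKI replicate 2 and 10 without CKI replicate 3 or Kushen replicate 1. FAM47E on the lower side, and GPR143, LINC02701, TMPRSS6 and VWCE on the higher, were called although the CKI values overlapped a single injection.

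UCA1, a long noncoding RNA first described in bladder carcinoma, was the member farthest above. UCA1 lies at chr19:15939016-15947138 (GRCh37, as for all positions of genes below). UCA1 read 17.0, 18.0 and 16.7 CPM in the 3 CKI libraries, 1.69, 1.89 and 2.00 with Kushen and 0.0488, 0.768 and 0.331 with Baituling. The CKI libraries formed a tight group far above the rest, and Baituling had 1 to 14 counts. CKI was 8.92-fold above Kushen in mean log2 level, and higher than the average by 4.37 ± 0.16 (log2, SE, edgeR adjusted p 3.27e-14). That p-value, like those of the members below, comes from the values by which the gene was chosen. The gene overlaps others on the opposite strand, whose reads cannot be told apart in unstranded libraries. A list that holds UCA1 and several nuclear-retained transcripts had 12 long noncoding RNAs tested. Of these 4 were above (33.3%, against 16.4% of all genes) and 1, GAS5, below (8.33%, against 15.7%). KCNQ1OT1, the antisense transcript of the imprinted KCNQ1 locus, read 5.37, 4.63 and 2.96 CPM with CKI against 2.09 to 2.57 with Kushen and 0.293 to 0.713 with Baituling, and was called higher than the average, 1.95 ± 0.21. FTX, from the X-inactivation centre, was above at 2.01 ± 0.17 CPM against 1.46 ± 0.201 with Kushen and 0.903 ± 0.223 with Baituling but not called.

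Immediate early transcription factors were above the single injections more often than genes at large. Of 30 tested, 12 were above (40.0%, against 16.4% of all genes) and 1, KLF6, below (3.33%, against 15.7%). Called higher than the average were 11, against 5.25% of all genes, and none was called lower. The median difference from the average was 0.48, against 0.02 over all genes tested, and 0.66 with library totals, against 0.20. It was 0.75 from Kushen but 0.08 from Baituling, so the list's shift was mostly against Kushen. CKI was higher than Kushen for 28 of the 30 and higher than Baituling for 16. EGR1 (chr5:137801168-137804992), a zinc finger factor of the early growth response family, read 466, 482 and 534 CPM with CKI, 79.9, 76.9 and 115 with Kushen and 128, 166 and 220 with Baituling. EGR2 (chr10:64571756-64578927), a relative of EGR1, read 5.73, 6.81 and 5.13 with CKI, 1.29, 1.64 and 1.55 with Kushen and 0.927, 0.823 and 0.773 with Baituling. No single-injection library came near the CKI libraries of either gene, but the nearer injection was Baituling for EGR1 and Kushen for EGR2. The orphan nuclear receptor gene NR4A3 averaged 2.03 ± 0.308 CPM with CKI, 0.664 ± 0.193 with Kushen and 0.407 ± 0.057 with Baituling. Differences from the average were 1.99 ± 0.11 for EGR1 (adjusted p 1.60e-11), 2.39 ± 0.15 for EGR2 (5.14e-11) and 1.95 ± 0.23 for NR4A3 (3.77e-07), in edgeR. Members of the list inside the range included FOS, FOSB, JUN and MYC. FOS, which was called higher than the average, differed from Baituling by -0.44, and FOSB by -1.34.

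Feedback inhibitors of the MAP kinases held members on both sides, as genes at large did. Of 17 tested, 5 were above (29.4%, against 16.4% of all genes) and 2 below (11.8%, against 15.7%). The only call was 1 in the higher direction, against 5.25% of all genes. DUSP1, a nuclear phosphatase of p38 and JNK, read 241, 256 and 281 CPM with CKI, 61.5 to 69.7 with Kushen and 141 to 156 with Baituling, and was higher than the average by 1.41 ± 0.05 (edgeR adjusted p 1.22e-14). DUSP5 (388 ± 30.2 CPM with CKI, 289 ± 15.2 with Kushen, 195 ± 6.37 with Baituling) and SPRED3 (12.4 ± 1.54, 8.73 ± 1.02 and 7.43 ± 1.20) were above without a call. The genes DUSP4 and DUSP6 were below. DUSP4 averaged 503 ± 5.11, 626 ± 17.7 and 887 ± 15.7 CPM, and DUSP6 649 ± 20.5, 764 ± 17.3 and 926 ± 29.2. The list's median was -0.02 and turned to 0.16 with library totals.

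The interleukin-1 family included agonist, decoy and antagonist genes among the members. Of 8 tested, 4 were above (50%, against 16.4% of all genes) and none below (against 15.7%), with a median difference of 0.51. In the higher direction 3 were called, against 5.25% of all genes. IL1A (chr2:113531502-113542070), the alarmin ligand, read 18.5, 18.8 and 17.6 CPM with CKI, 5.19, 5.05 and 4.08 with Kushen and 8.49, 9.32 and 11.2 with Baituling. IL1RN, which encodes the receptor antagonist, read 1.41, 1.33 and 1.90 with CKI, 0.483, 0.369 and 0.310 with Kushen and 0.0976, 0.658 and 0.497 with Baituling. The decoy receptor gene IL1R2 averaged 0.660 ± 0.170 CPM with CKI, 0.151 ± 0.113 with Kushen and 0.259 ± 0.141 with Baituling. Against the average the differences were 1.43 ± 0.09 for IL1A, 1.94 ± 0.30 for IL1RN and 1.69 ± 0.40 for IL1R2, the last on 2 to 21 counts per library. IL1R2 passed the filter on low counts only through its CKI libraries, so it could be counted only by being higher there. IL1B, the other agonist, was no member, since its 26.0 ± 1.87 CPM with CKI lay between 12.3 ± 0.757 with Kushen and 38.3 ± 1.46 with Baituling.

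Secreted ligands outside that family included some of the strongest members. IL24 (chr1:207070788-207077484), a cytokine of the IL-10 family, read 33.2, 33.1 and 38.1 CPM with CKI, 11.1, 9.40 and 9.45 with Kushen and 3.90, 3.40 and 2.98 with Baituling. TNFSF15 (chr9:117546932-117568319), a TNF-like ligand that activates NF-kB, read 89.9, 95.2 and 97.7 with CKI, 32.7, 38.4 and 35.1 with Kushen and 31.9, 33.6 and 31.2 with Baituling. For IL24 the single injections were well apart, while for TNFSF15 their levels almost met and CKI alone stood out. CKI exceeded the average by 2.57 ± 0.08 for IL24 (edgeR adjusted p 3.10e-15) and 1.48 ± 0.05 for TNFSF15 (6.68e-15). Of 22 cytokines and chemokines tested, 5 were above (22.7%, against 16.4% of all genes) and 1, TNFSF10, below (4.55%, against 15.7%). Called higher were 4 and lower 3, where 5.25% and 1.74% of all genes were called. The eotaxin CCL26 averaged 3.40 ± 0.263 CPM with CKI, 1.27 ± 0.476 with Kushen and 0.501 ± 0.188 with Baituling. CXCL16, a membrane-bound chemokine, averaged 14.5 ± 0.504, 6.84 ± 1.20 and 3.07 ± 0.625 in the same order. The list's median was -0.03, and 0.15 with library totals. CXCL8, interleukin-8, was inside with Baituling highest, at 134 ± 9.89 CPM against 55.1 ± 6.25 with CKI.

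NF-kB genes were closer to the single injections. Of 16 subunits and feedback genes tested, 8 were above (50%, against 16.4% of all genes) and none below (against 15.7%). None was called, since no difference from the average reached 1 on the log2 scale. The rule chose these 8 by the same values, so no test is given for them. BIRC3, an inhibitor of apoptosis bound to TNF receptors, read 117, 111 and 111 CPM with CKI, 57.4 to 60.3 with Kushen and 64.0 to 72.1 with Baituling, a difference of 0.84 ± 0.04. The signalling adaptor gene TRAF1 averaged 31.2 ± 1.67 CPM with CKI, 14.9 ± 1.83 with Kushen and 22.3 ± 1.82 with Baituling. REL, a subunit gene, had 4.35 ± 0.140 CPM with CKI, 3.10 ± 0.550 with Kushen and 2.76 ± 0.514 with Baituling. The inhibitor genes NFKBIA and TNFAIP3 were inside, with Baituling highest.

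Of 20 genes of matrix proteases, inhibitors and the plasminogen system, 5 were above (25%, against 16.4% of all genes) and 4 below (20%, against 15.7%), shares near those of genes at large. In this list 3 were called higher and 1 lower, where 5.25% and 1.74% of all genes were called. The collagenase genes MMP1 and MMP13 were farthest above. MMP1 (chr11:102660132-102668891), interstitial collagenase, read 246, 258 and 262 CPM with CKI, 97.8, 104 and 103 with Kushen and 103, 102 and 98.9 with Baituling. MMP13 (chr11:102813724-102826461), collagenase-3, read 4.16, 3.75 and 4.23 with CKI, 0.885, 0.451 and 0.488 with Kushen and 0.0488, 0.110 and 0.221 with Baituling. MMP1 had almost the same level under both single injections (log2 difference 0.00, adjusted p 0.972 in edgeR), whereas MMP13 had 1 to 4 counts under Baituling and 11 to 22 under Kushen. Differences from the average were 1.33 ± 0.04 for MMP1 (edgeR adjusted p 4.89e-16) and 3.84 ± 0.24 for MMP13 (5.46e-11). The urokinase gene PLAU was below, at 244 ± 12.6 CPM with CKI against 346 ± 13.2 with Kushen and 363 ± 4.53 with Baituling, a difference of -0.54 ± 0.04. MMP1 overlaps WTAPP1 and PLAU overlaps C10orf55 on the opposite strand, as IL24 does FCMR, JUNB HOOK2, CCND1 LTO1 and DHRS4 DHRS4-AS1.

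Of 10 genes of the aryl hydrocarbon receptor pathway tested, 6 were above (60%, against 16.4% of all genes). The receptor gene AHR itself was the 1 below (10%, against 15.7%). Calls in the higher direction were 3, where 5.25% of all genes were called, and the median difference was 0.60. CYP1A1 (chr15:75011883-75017877), the cytochrome P450 gene that is the receptor's classical target, read 158, 155 and 154 CPM with CKI, 62.1, 59.0 and 56.6 with Kushen and 2.39, 2.36 and 2.48 with Baituling. The 3 groups were fully separated, with Kushen far above Baituling and CKI 2.63-fold above Kushen. Its repressor AHRR averaged 5.54 ± 0.159 CPM with CKI, 3.05 ± 0.718 with Kushen and 1.28 ± 0.221 with Baituling. CYP1B1, a second P450 of the pathway, averaged 488 ± 8.05, 352 ± 2.22 and 142 ± 6.06. In log2, CKI exceeded the average by 3.70 ± 0.05 for CYP1A1, 1.5 ± 0.15 for AHRR and 1.13 ± 0.03 for CYP1B1.

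Among NRF2 targets the aldo-keto reductases stood farthest above. Of 25 tested, 9 were above (36%, against 16.4% of all genes) and 1 below (4%, against 15.7%). There were 8 calls in the higher direction, against 5.25% of all genes, and none in the lower. The median difference was 0.61 from the average but -0.01 from Kushen. AKR1C1 (chr10:5005445-5025475), a reductase of steroids and lipid aldehydes, read 32.8, 35.8 and 34.6 CPM with CKI, 11.5, 11.2 and 10.7 with Kushen and 1.12, 1.54 and 1.49 with Baituling. AKR1C2 averaged 14.0 ± 0.478, 5.55 ± 0.151 and 0.584 ± 0.327, and AKR1B10 averaged 18.5 ± 0.943, 9.87 ± 1.17 and 0.490 ± 0.195. AKR1C1 and AKR1C2 are near-identical, so the split of reads between them is uncertain. All 3 had the order Baituling, Kushen, CKI, with CKI 3.07-fold, 2.5-fold and 1.87-fold above Kushen for AKR1C1, AKR1C2 and AKR1B10. HMOX1, heme oxygenase 1, and SLC7A11, the cystine transporter, were above by 1.29-fold and 1.15-fold over the nearer injection. NQO1, the quinone reductase on this list and the previous one, was inside with Kushen highest, at 231 ± 4.56 CPM against 192 ± 9.27 with CKI.

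Stress genes were members one by one rather than as a group. GDF15 (chr19:18485541-18499986), a secreted stress cytokine on the p53 list, read 181, 193 and 215 CPM with CKI, 58.2, 69.6 and 74.6 with Kushen and 44.1, 42.3 and 44.4 with Baituling. DDIT3 (chr12:57910371-57915520), which encodes the transcription factor CHOP, read 40.2, 43.1 and 41.4 with CKI, 22.0, 19.3 and 21.1 with Kushen and 9.12, 7.57 and 10.2 with Baituling. Both were called higher, by 1.86 ± 0.06 and 1.61 ± 0.07 against the average. Of 30 genes of the integrated stress and unfolded protein responses, however, 4 were above (13.3%, against 16.4% of all genes) and 8 below (26.7%, against 15.7%). DDIT3 was the only call, and the median of -0.11 turned to 0.07 with library totals. The sensor gene ERN1 was above (51.6 ± 1.90 CPM with CKI, 32.2 ± 1.34 with Kushen, 21.3 ± 1.49 with Baituling). HSP90B1, the chaperone of the endoplasmic reticulum, was below, with 752 ± 19.6, 1190 ± 19.4 and 1410 ± 36.4 CPM, a difference of -0.78 ± 0.03 that did not reach the threshold.

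Of 23 p53 targets, 6 were above (26.1%, against 16.4% of all genes) and 1, BAX, below (4.35%, against 15.7%). Called higher were 2, GDF15 and BTG2, against 5.25% of all genes, and the median difference was 0.05. CDKN1A, which encodes the cyclin kinase inhibitor p21, read 352, 373 and 378 CPM with CKI, 208 to 234 with Kushen and 222 to 223 with Baituling, a difference of 0.72 ± 0.04. The antiproliferative gene BTG2 averaged 1.53 ± 0.254 CPM with CKI, 0.757 ± 0.161 with Kushen and 0.414 ± 0.272 with Baituling. The heat shock genes HSPA6 and HSPB8 were also far above. HSPA6, a strictly inducible HSP70, read 5.10, 5.36 and 4.62 CPM with CKI, 0.845 to 1.64 with Kushen and 1.04 to 1.41 with Baituling. HSPB8, a small heat shock protein of chaperone-assisted autophagy, averaged 18.5 ± 0.937 with CKI, 7.03 ± 1.26 with Kushen and 6.07 ± 0.486 with Baituling. HSPA6 has a near-identical copy, HSPA7, and ACTBL2, an actin-like gene that was also above (7.76 ± 0.894, 2.32 ± 0.330 and 1.18 ± 0.118 CPM), resembles other actins, so reads of both are uncertain.

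**Figure D3:**
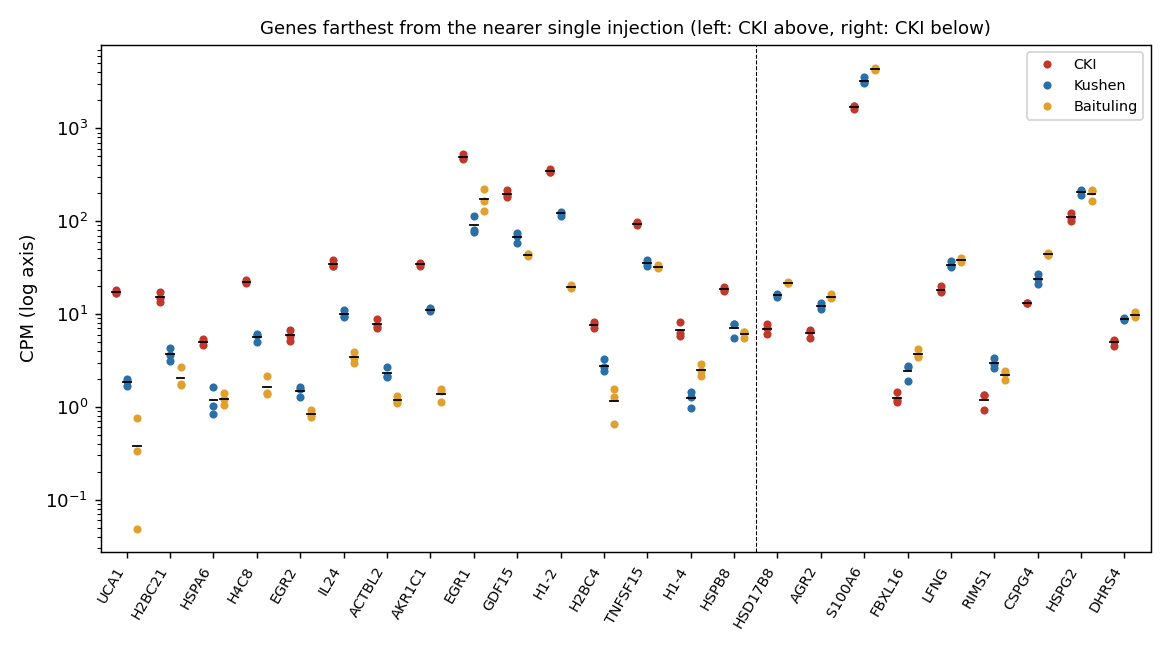
CPM (log axis) in each of the 9 libraries for the 15 genes farthest above and 9 of the 10 farthest below the nearer single injection, among members whose mean log2 CPM reached 1. Points are libraries coloured by group, black bars are group means, and the dashed line separates the sides. The CKI points of UCA1, at 16.7 to 18.0 CPM, stand farthest from the 6 others, and those of HSD17B8, at 6.16 to 7.74 CPM, are farthest below.

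Replication-dependent histones were the list with the largest shift, and its direction was opposite to that of the replication genes described below. Of 12 tested, 9 were above (75%, against 16.4% of all genes) and none below (against 15.7%). Calls were 8 higher and 2 lower, where 5.25% and 1.74% of all genes were called, and the median difference was 1.84. H1-2 (chr6:26055968-26056698), a linker histone, read 339, 339 and 361 CPM with CKI, 115, 127 and 121 with Kushen and 20.6, 19.0 and 19.5 with Baituling. H2BC21 (chr1:149856009-149858232) read 17.1, 13.5 and 14.7 with CKI, 3.66, 3.12 and 4.35 with Kushen and 1.76, 2.69 and 1.71 with Baituling. Both stepped up from Baituling through Kushen to CKI without overlap, and so did H4C8, at 1.65 ± 0.439, 5.67 ± 0.633 and 22.4 ± 0.665 CPM. H1-4 had Kushen lowest, at 1.23 ± 0.251 CPM against 2.48 ± 0.373 with Baituling and 6.76 ± 1.20 with CKI. Differences from the average were 2.82 ± 0.04 for H1-2 (edgeR adjusted p 1.89e-20), 2.46 ± 0.12 for H2BC21 and 2.87 ± 0.09 for H4C8. H4C3 and H2AC20, named after their values were seen, were the 2 called lower and were inside. H4C3 averaged 0.278 ± 0.0826 CPM with CKI and 0.311 ± 0.154 with Kushen, and H2AC20 0.317 ± 0.0407 and 0.166 ± 0.0341, against 1.11 ± 0.0645 and 2.46 ± 0.270 with Baituling. These transcripts mostly lack a poly(A) tail and have near-identical copies, so their counts are uncertain. Among 4 other tested RNAs without a tail 1 was above (25%, against 16.4% of all genes) and 2 were called higher (5.25% of all genes). RN7SK, a small nuclear RNA that restrains transcription elongation, was above without a call, at 2.5 ± 0.0755 CPM against 1.82 ± 0.439 and 2.07 ± 0.369 (edgeR adjusted p 0.0739). The 2 calls were SNORD3A and SNORD3B-2, higher than the average by 1.59 and 1.21. Both were inside, with differences from Baituling of -0.03 and -0.44.

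Prostaglandin genes of both synthesis and breakdown were among the members. Of 16 tested, 7 were above (43.8%, against 16.4% of all genes) and 2 below (12.5%, against 15.7%). Calls were 6 higher and 1 lower, where 5.25% and 1.74% of all genes were called, and the median difference was 0.28. HPGD, the enzyme that inactivates prostaglandins, read 3.65, 3.38 and 3.59 CPM with CKI, 1.73 to 2.5 with Kushen and 0.537 to 0.773 with Baituling. PTGS2, the inducible cyclooxygenase, averaged 9.20 ± 1.07, 2.45 ± 0.198 and 7.35 ± 0.710 CPM and was called higher than the average. The receptor gene PTGER3, which also passed the filter only through CKI, averaged 0.808 ± 0.173, 0.486 ± 0.184 and 0.122 ± 0.0592. The uptake transporter SLCO2A1 was the call on the lower side, at 0.172 ± 0.0594 CPM with CKI, 0.345 ± 0.119 with Kushen and 1.04 ± 0.238 with Baituling, on 3 to 6 counts per CKI library. On the log2 scale the differences were 1.62 ± 0.17 for HPGD, 1.69 ± 0.36 for PTGER3 and -1.78 ± 0.41 for SLCO2A1.

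Members below were closer to the single injections, and their leading genes had varied roles. HSD17B8 (chr6:33172432-33174608), which acts in mitochondrial fatty acid synthesis, read 7.02, 7.74 and 6.16 CPM with CKI, 15.4, 16.3 and 16.2 with Kushen and 21.9, 21.8 and 21.6 with Baituling. S100A6 (chr1:153507075-153508720), a calcium-binding protein, read 1620, 1750 and 1720 with CKI, 3540, 3040 and 3140 with Kushen and 4500, 4320 and 4300 with Baituling. Both genes had their lowest values under CKI and their highest in Baituling, without overlap between groups. Differences from the average were -1.42 ± 0.08 for HSD17B8 (edgeR adjusted p 6.73e-12) and -1.15 ± 0.05 for S100A6 (7.89e-14). Other members far below were AGR2, a protein disulfide isomerase relative (6.30 ± 0.677 CPM with CKI, 12.2 ± 0.887 with Kushen, 15.4 ± 0.819 with Baituling), and CSPG4, a melanoma-associated surface proteoglycan (13.2 ± 0.123, 23.9 ± 2.94 and 44.4 ± 1.24). HSPG2, the basement membrane proteoglycan perlecan, had Baituling as the nearer injection, at 111 ± 12.3 CPM with CKI, 208 ± 12.8 with Kushen and 198 ± 27.7 with Baituling. LFNG, a modifier of Notch, RIMS1, a synaptic scaffold, FBXL16, an F-box protein, and DHRS4, a carbonyl reductase with near-identical copies, were also among those farthest below, with distances of -0.81 to -0.89.

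Markers of the cell line were themselves among the members below. Of the 6 mesenchymal markers 5 were below (83.3%, against 15.7% of all genes) and CAV1 was inside. VIM, which encodes vimentin, read 336, 351 and 364 CPM with CKI, 563 to 599 with Kushen and 2010 to 2120 with Baituling, a difference from the average of -1.65 ± 0.04 (edgeR adjusted p 9.46e-17). S100A4 averaged 218 ± 5.44, 380 ± 34.2 and 444 ± 18.1 CPM, and AXL, a receptor tyrosine kinase, 534 ± 8.37, 765 ± 19.9 and 1030 ± 14.2. The summed count of the 6 was 59124 to 60922 with CKI, 70648 to 78797 with Kushen and 113613 to 128824 with Baituling, and its part in the other results was not tested. The epithelial genes KRT19 (679 ± 29.1, 926 ± 64.7 and 1580 ± 78.9 CPM) and ERBB2 (56.8 ± 1.12, 64.1 ± 2.45 and 104 ± 2.16) were below as well. CDH1 and EPCAM, also epithelial, were inside. Their log2 differences were 0.41 and 0.08 from Kushen and -1.34 and -0.81 from Baituling. In bulk samples, fewer cells of a type and less RNA per cell cannot be told apart.

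Cholesterol synthesis genes were below together, by small amounts. Of 25 tested, 17 were below (68%, against 15.7% of all genes) and 1, SC5D, above (4%, against 16.4%). In the lower direction 2 were called, against 1.74% of all genes. The median difference was -0.35, but with library totals 8 were below and the median was -0.17 against 0.20 over all genes. HMGCS1, which makes HMG-CoA for the mevalonate pathway, read 110, 109 and 103 CPM with CKI, 166 to 181 with Kushen and 264 to 302 with Baituling, a difference of -1.04 ± 0.05 (edgeR adjusted p 4.72e-13). FDFT1, squalene synthase, averaged 360 ± 18.6, 464 ± 6.78 and 480 ± 10.3 CPM, with the single injections close together. SQLE, the squalene epoxidase, was inside at 82.6 ± 1.99 CPM, between 69.1 ± 2.01 with Baituling and 90.6 ± 2.01 with Kushen.

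Mitosis genes were below in most cases, and the step from Kushen to CKI was much smaller than that from Baituling to Kushen. Of 40 tested, 32 were below (80%, against 15.7% of all genes) and none above (against 16.4%). In the lower direction 16 were called, against 1.74% of all genes. The median difference was -0.92 from the average but -0.23 from Kushen and -1.59 from Baituling. With library totals 24 were below and 9 called. KIF20A, a kinesin of cytokinesis, read 16.9, 19.3 and 17.0 CPM with CKI, 24.9 to 26.3 with Kushen and 126 to 133 with Baituling. SPC24, a kinetochore subunit, averaged 16.4 ± 0.721, 25.6 ± 0.368 and 44.2 ± 1.75 CPM. CCNB1, mitotic cyclin B1, whose promoter is shown above, averaged 67.7 ± 2.61, 80.8 ± 2.37 and 316 ± 6.35. All 3 were called lower than the average, by -1.70 ± 0.05 for KIF20A, -1.04 ± 0.06 for SPC24 and -1.24 ± 0.04 for CCNB1. CCND1, the G1 cyclin D1, was below without a call, at 456 ± 4.41, 630 ± 13.8 and 797 ± 32.5 CPM.

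DNA replication genes showed the same order in a smaller share. Of 40 tested, 20 were below (50%, against 15.7% of all genes) and none above (against 16.4%). In the lower direction 2 were called, against 1.74% of all genes, and the median difference was -0.52. With library totals 18 were below and 2 above. The 2 calls were LIG1, the ligase that joins Okazaki fragments, at 21.5 ± 1.65 CPM with CKI, 31.7 ± 1.15 with Kushen and 77.0 ± 3.21 with Baituling, and TYMS, thymidylate synthase, at 18.9 ± 1.90, 27.0 ± 0.623 and 87.0 ± 1.72. Their differences from the average were -1.20 ± 0.06 and -1.35 ± 0.06.

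Cytosolic ribosomal protein genes were the most uniform group. Of 54 tested, 52 were below (96.3%, against 15.7% of all genes) and none above (against 16.4%), while RPS10 and RPS15 were inside. In the lower direction 2 were called, against 1.74% of all genes, and the median difference was -0.56. The summed level of the list was 29300 to 31100 CPM with CKI, 36200 to 37300 with Kushen and 58400 to 64600 with Baituling, so that no CKI library reached any other. RPLP0, the acidic stalk protein, read 1260, 1320 and 1360 CPM with CKI, 1860 to 1880 with Kushen and 3340 to 3620 with Baituling, a difference of -0.95 ± 0.04. RPL3, of the large subunit, averaged 652 ± 13.9, 921 ± 15.8 and 2010 ± 95.8 CPM and was called lower, at -1.06 ± 0.04 (edgeR adjusted p 2.01e-14). With library totals, which scale down the Baituling values, 48 of the 54 were still below and the median was -0.38.

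**Figure D4:**
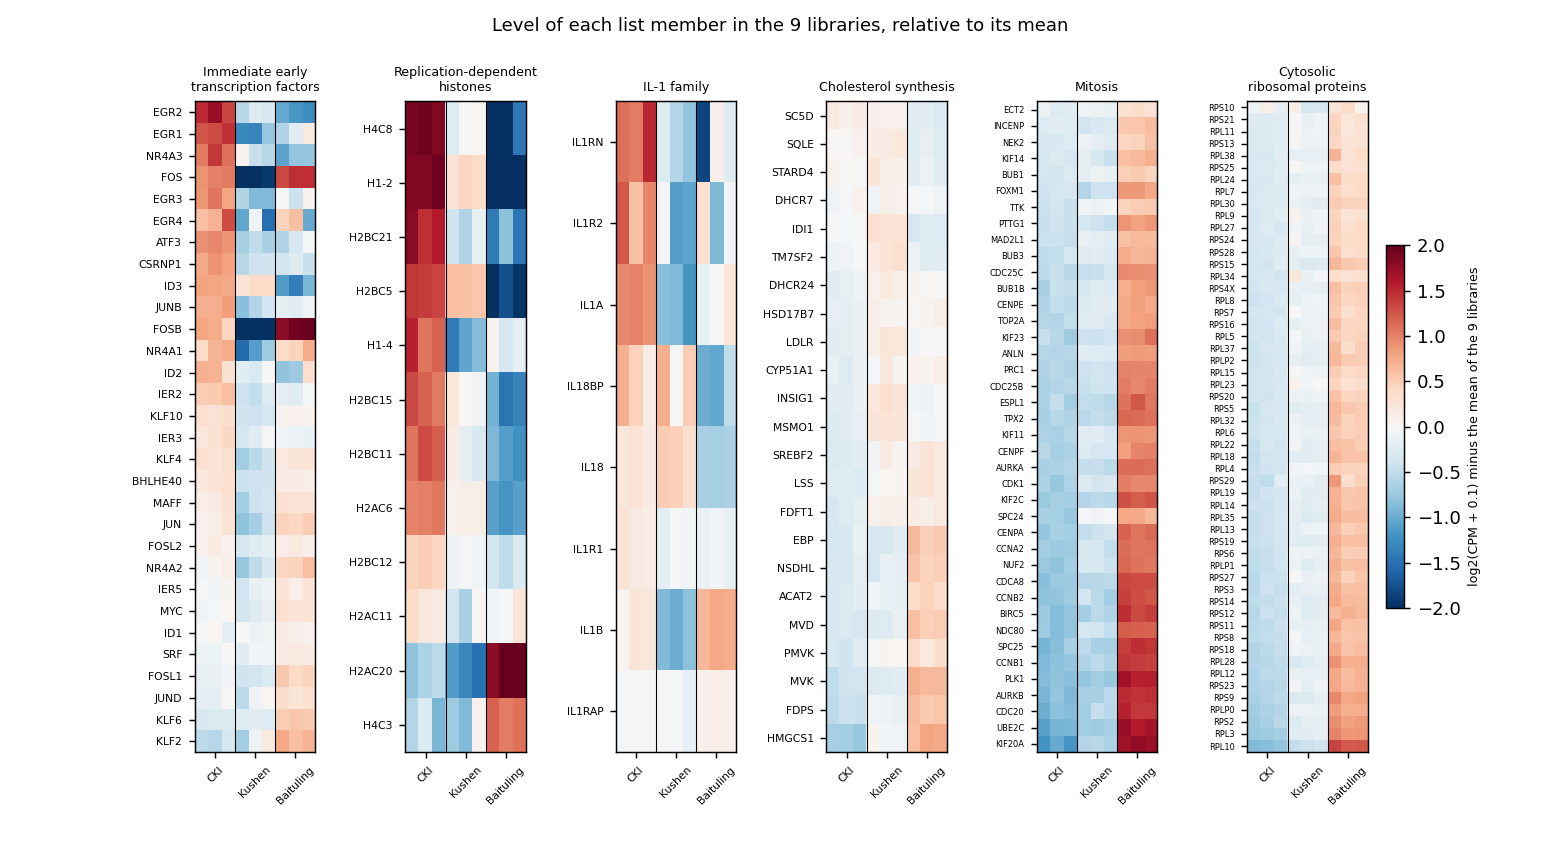
Level of tested members of 6 gene lists in the 9 libraries, as log2(CPM + 0.1) minus the mean of that gene over the libraries, with colours ending at 2 and -2 (red higher, blue lower). Genes are rows sorted by their difference from the average, and columns are the 3 libraries of each group. Histones and several immediate early genes are reddest in CKI, while mitosis and ribosomal protein genes are red in Baituling and blue in CKI.

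**Figure D5:**
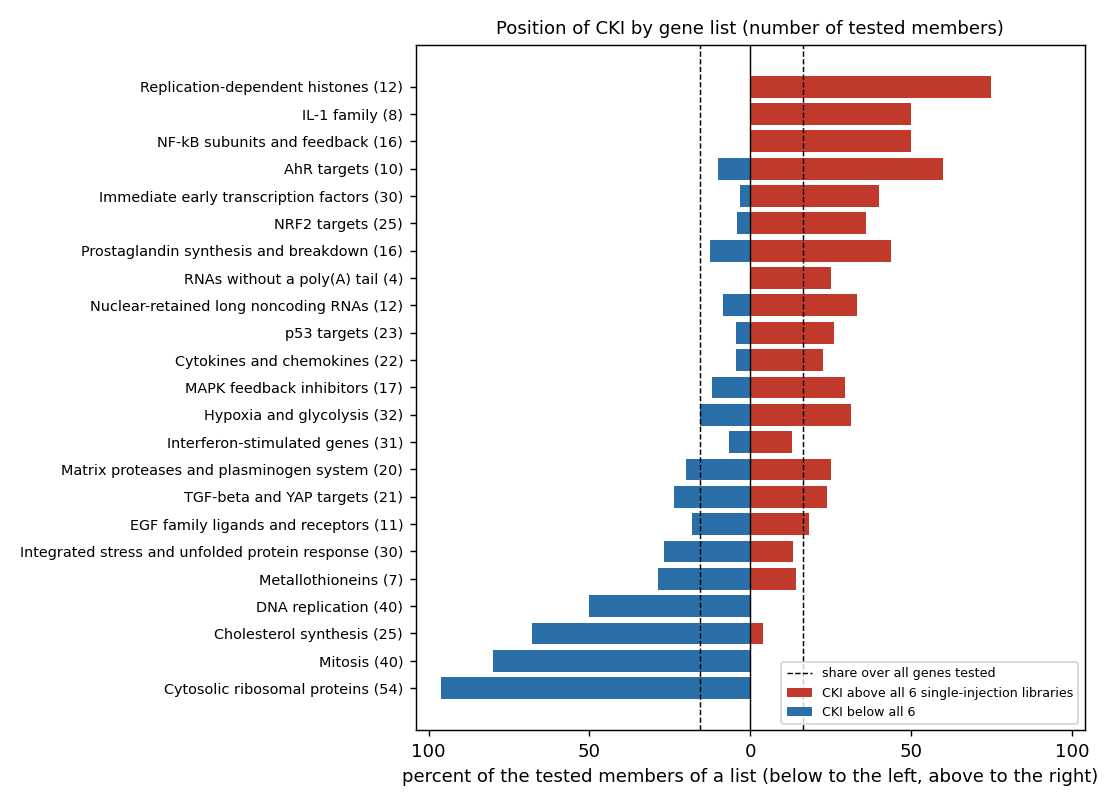
Percent of the tested members of each gene list with CKI above all 6 single-injection libraries (red, to the right) and below all 6 (blue, to the left), with the number tested in brackets. Dashed lines mark the shares over all genes, 16.4% and 15.7%. Ribosomal protein and mitosis genes reach 96.3% and 80.0% below, and histones 75% above.

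CKI exceeded the 2 single injections added together for a small set. In 161 genes (1.13% of those tested) every CKI library was above the sum of the highest Kushen and the highest Baituling CPM. The sum holds the resting level of the cells in both of its terms, and no untreated library was analysed here, so it is a high bar but no measure of an interaction. A mean log2 CPM of at least 1 was found for 68 of them, 36 had passed the filter only through CKI, and 111 were called higher against each injection. The number was 282 without Baituling replicates 2 and 3, an alternative chosen after seeing the data, since fewer libraries lower the highest value. EGR1 met it with at least 466 CPM against a sum of 335, MMP1 with 246 against 207, and GDF15 with 181 against 119. CYP1A1, H1-2, IL24 and UCA1 met it too. JUNB, an AP-1 subunit named after its values were seen, was above all 6 libraries but not above the sum, with 369 to 403 CPM against 390.

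Promoters were compared for what the members shared outside their levels. RefSeq promoters matched 11377 of the 14195 genes, and motifs were searched on both strands except the pyrimidine start. An AP-1 site (TGAGTCA or TGACTCA) was found in 3.3% of the promoters of genes tested and 4.92% of all 27305 promoters. The share was 4.84% for members above, 2.56% for members below and 13.4% (15 of 112) for genes above the sum. Those 15 included IL1A, IL1RN, TNFSF15, DDIT3 and HSPA6. They also included ENTPD2 and LINC02288, which had passed the filter only through CKI. A pyrimidine start, here a C at the first base followed by 4 bases that are C or T, opened 5.17% of the promoters of genes tested, 4.04% of all promoters, 3.34% of members above and 9.42% of members below. Among ribosomal protein genes it was 62.8% (27 of 43), as in RPLP0 above. A CCAAT box (CCAAT or ATTGG) was held by 36.3% of genes tested, 35.7% of all promoters, 75.8% of mitosis genes and 10 of 11 histone genes, so that it occurred both in a group that was mostly below and in a group that was mostly above. The dioxin response core (GCGTG or CACGC) was present in 50% of genes tested, 36.3% of all promoters and 48.9% of members above, and a serum response element in 1.07%, 1.29% and 0.915%. Among genes above the sum the dioxin response core was present in 35.7% and a serum response element in 5.36% (6 of 112). These matches describe letters in a window of 300 bases, and binding was not measured.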

How the data were processed

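RNA was sequenced from 9 cultures, with groups taken from the GEO labels and columns matched to libraries by treatment initial and replicate number. According to the submitters' notes the authors trimmed reads with Trim Galore 0.3.7 and aligned them with STAR 2.5.3a to hg19, and they deposited raw whole-number counts per gene. The counting program and annotation are not given in the sources used here. Of 24566 deposited rows 222 repeated an Ensembl gene and were dropped, which left 24344 genes, named from GENCODE on GRCh37 (24224) or RefSeq (99). Genes were filtered with filterByExpr of edgeR 4.0.16 (minimum count 10, total 15), which removed 10149, and scaled by TMM. Log2 CPM used a prior count of 2. A quasi-likelihood fit on group over the 9 libraries gave the contrasts, two-sided, with Benjamini-Hochberg adjustment over 14195 genes, and was tested on simulated data. The biological coefficient of variation was 4.53%. Replicates differed by more than sampling noise (chi-square per gene 1.70 to 6.85).

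Members and gene lists (626 symbols, 597 in the table) were chosen with earlier results of these data known. Named genes were the 15 farthest above and the 10 farthest below at a mean log2 CPM of at least 1, the 3 farthest members of each list, and CYP1A1, CCND1, IL1B and IL1A. Other genes named were chosen after their values were seen. Alternatives, run in R 4.3.3, covered scaling, filter, tool (DESeq2 1.42.0), thresholds, replicate block and left-out libraries. Some genes the rule names are not reported here.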

Additional observations from a re-analysis of the deposited data

How the results depend on the processing

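With library totals in place of TMM, 118 genes were called lower than the average, 3968 were above all 6 libraries and 1225 below, and the medians of all genes moved from 0.034 to 0.321 against Baituling and from 0.018 to 0.229 between the single injections. Without a filter beyond 1 count, 1196 were called higher. With at least 10 counts in every library 457 were called, 271 of them higher, and 49 and 1 were called against each injection, fewer genes having been tested. A test set against a log2 fold change of 1 gave 287 (213 higher, 74 lower), and no fold threshold gave 9545 (4931 and 4614). Leaving out 1 library at a time gave 5 to 11 genes called lower against each injection and 165 to 197 higher. It gave 2359 to 2847 above, 2292 to 2729 below and 183 to 224 above the sum, rules that fewer libraries make easier to meet. Without Baituling replicates 2 and 3, chosen after seeing the data, 282 were above the sum.

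Libraries with the same number did not deviate together (correlations of -0.28 to 0.25), and those with different numbers correlated at -0.28 to 0.35. No pairing by number was seen, but such correlations cannot show whether samples were handled in pairs. A fit with the number as a replicate block called 992 genes, 746 higher and 246 lower, against 992, 745 and 247 without it.

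Of 88 named genes none changed direction in any of 1320 refits. Most had been chosen for lying farthest outside the single injections, so a change of direction was unlikely from the start and this count is no support. BTC lost its adjusted p under 0.05 with library totals (0.054) and without CKI replicate 1 (0.0939), and RN7SK gained it with library totals (0.00954) and without Kushen replicate 1 (0.0402). The cause was not tested. Folds of genes with few counts, such as MMP13 and UCA1 under Baituling, are imprecise.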

Other observations

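Of 32 hypoxia and glycolysis genes tested, 10 were above all 6 single-injection libraries (31.2%, against 16.4% of all genes) and 5 below (15.6%, against 15.7%). There was 1 call, in the higher direction, and the median difference from the average was 0.09. The peptide hormone gene ADM read 141, 143 and 148 CPM with CKI, 74.0 to 77.0 with Kushen and 64.0 to 81.9 with Baituling, and VEGFA averaged 816 ± 11.2, 563 ± 32.9 and 685 ± 19.6 CPM in the same order (SD, n = 3 each). The glycolytic enzyme gene ENO1 was below, at 2770 ± 116, 3360 ± 141 and 4590 ± 231 CPM. With library totals 15 were above and 3 below.

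Of 31 interferon-stimulated genes 4 were above (12.9%, against 16.4% of all genes) and 2 below (6.45%, against 15.7%), and none was called in edgeR. USP18 averaged 1.96 ± 0.202 CPM with CKI, 0.919 ± 0.0932 with Kushen and 1.12 ± 0.257 with Baituling. GBP2 averaged 125 ± 1.77, 101 ± 1.14 and 84.0 ± 2.18 in the same order, and BST2, which was below, 300 ± 5.46, 356 ± 11.1 and 376 ± 14.3. Of 21 TGF-beta and YAP targets 5 were above and 5 below (23.8% each, against 16.4% and 15.7% of all genes), shares near those of genes at large, and none was called, with a median of -0.05 that turned to 0.13 with library totals. COL1A1, collagen I, averaged 35.6 ± 2.98 CPM with CKI, 22.7 ± 1.96 with Kushen and 16.3 ± 2.10 with Baituling, and SMAD7, the inhibitory SMAD, 36.7 ± 1.81, 24.1 ± 2.94 and 18.7 ± 1.59. Of 7 metallothionein and zinc-response genes 1 was above (14.3%, against 16.4% of all genes) and 2 below (28.6%, against 15.7%), and none was called. MT1A (4.47 ± 0.318, 9.71 ± 1.33 and 7.77 ± 0.556 CPM) and MT2A (1440 ± 54.4, 2010 ± 71.0 and 1640 ± 77.5) were below. Their activator MTF1 (40.0 ± 2.04, 30.5 ± 1.11 and 17.1 ± 1.12) was above, and MT1E, MT1F, MT1X and SLC30A1 were inside. Of 11 EGF family genes 2 were above and 2 below (18.2% each, against 16.4% and 15.7% of all genes), shares near those of genes at large. EGF (5.67 ± 0.598, 3.93 ± 0.416 and 1.66 ± 0.333 CPM) was the call, higher than the average by 1.15 ± 0.13, HBEGF (138 ± 5.25, 96.8 ± 2.92 and 122 ± 3.23) was above, and BTC (1.26 ± 0.377, 1.81 ± 0.228 and 2.12 ± 0.227) was below.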
